A study of Mus musculus with 8 samples.

Results

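The 10 genes described here encode endothelin-1 and its converting enzyme, apelin, and growth factors of the VEGF, PDGF and FGF families (Edn1, Ece1, Apln, Pdgfa, Pdgfb, Pgf, Vegfa, Vegfb, Vegfc and Fgf2). They are 10 of the 55492 genes in the deposited tables and were found by symbol, each on a row of its own. The members were chosen by function, and with their counts and log2 fold changes between 4-OI and DMSO libraries in view, so those differences are given below as a description with no test. RNA was measured in YUMM5.2, a mouse melanoma line whose labels give the strain as C57B/6J. The libraries fall into 4-OI (n = 4, cells given what the labels call a permeable form of itaconate, a metabolite of activated macrophages) and the solvent control DMSO (n = 4). All cultures were kept for 20 h, all libraries came from polyA RNA, and no source used here states the dose. The labels name no allele and no further agent, and since they do not call the replicates separate cultures, each p-value covers only the spread among these 8 libraries.

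Endothelin-1 is a peptide that narrows blood vessels and acts on melanocytes, and it is cut from an inactive precursor by endothelin-converting enzyme. Apelin is a peptide that acts on a receptor of endothelial cells and shapes sprouting vessels. The VEGF family drives endothelial growth, with VEGF-A acting mainly on blood vessels and VEGF-C on lymphatic vessels, while PDGF-B secreted by endothelium recruits pericytes and PDGF-A and FGF-2 act on mesenchymal cells. Tumour cells can secrete many of these factors toward the vessels around them, but the cultures measured here were of a cell line alone.

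Total counts ran from 25664999 to 31185027 in the 4-OI libraries and from 22962963 to 31361677 in the DMSO libraries. Of the 7 melanocytic markers checked, 6 (Sox10, Dct, Tyr, Tyrp1, Pmel and Mlana) had at most 10 counts in every library, so the defining markers of pigment cells are all but absent in these libraries of a melanoma line. The seventh, Mitf, carried most of the summed level of 9.76 to 10.8 CPM with 4-OI and 6.27 to 7.4 CPM with DMSO. CPM are counts per 1000000 counts of the library, without TMM scaling for these marker sums and with it for single genes. Endothelial markers were as scarce, with 10 of 11 at no more than 10 counts in any library and Kdr and Cldn5 at 0 throughout. Their summed level was 1.75 to 2.04 CPM with 4-OI and 2.01 to 2.11 CPM with DMSO. Most of it was Plvap, with 36 to 47 counts with 4-OI and 39 to 55 counts with DMSO. All 7 immune markers stayed at or under 10 counts. Pericyte markers summed to 1.76 to 2.45 CPM with 4-OI and 2.11 to 3.14 CPM with DMSO, most of it Rgs5 and Notch3. Keratinocyte markers summed to 2.31 to 2.73 CPM with 4-OI and 1.83 to 2.77 CPM with DMSO, most of it Krt10. The 6 fibroblast markers summed to 1770 to 1860 CPM with 4-OI and 2520 to 2670 CPM with DMSO, most of it Col1a2 (1692 CPM with 4-OI and 2457 CPM with DMSO), and its part in the values below was not tested. Col1a1 and Dcn were also lower with 4-OI, while Pdgfra, the next most abundant of the 6, averaged 114.4 CPM with 4-OI and 107.2 CPM with DMSO. Lum was at 0 and Thy1 had no more than 1 count in any library. In bulk RNA, fewer cells of a type and less RNA per cell cannot be told apart.

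The proximal promoters of 3 members are shown, because Edn1 and Apln had the lowest fold changes of the 10 and Vegfa was the most abundant of them and lay on the other side. Each is the 250 bases before the gene's most upstream RefSeq start site (RefSeq, GRCm38.p6), read in the direction of the gene. Positions are relative to that site, and other start sites were not searched. Capitals mark matches, on either strand, to short motifs: the GC box GGGCGG, the antioxidant response element core TGACNNNGC, the TEAD motif GGAATG and the GATA motif AGATAA. Searches for the TATA box TATAAA, the AP-1 motif TGANTCA and the hypoxia response element cores ACGTG and GCGTG found nothing in these 3 stretches.
Edn1, chr13:42301226-42301475, plus strand: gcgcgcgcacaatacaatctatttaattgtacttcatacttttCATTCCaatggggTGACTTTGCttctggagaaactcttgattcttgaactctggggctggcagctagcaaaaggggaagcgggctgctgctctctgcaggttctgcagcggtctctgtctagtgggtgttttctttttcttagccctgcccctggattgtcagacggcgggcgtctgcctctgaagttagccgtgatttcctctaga
Apln, chrX:48034854-48035103, minus strand: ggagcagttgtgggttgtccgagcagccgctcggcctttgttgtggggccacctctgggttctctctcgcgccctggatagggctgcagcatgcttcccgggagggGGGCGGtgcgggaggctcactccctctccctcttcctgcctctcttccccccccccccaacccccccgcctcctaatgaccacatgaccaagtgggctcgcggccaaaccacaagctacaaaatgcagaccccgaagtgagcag
Vegfa, chr17:46032378-46032627, minus strand: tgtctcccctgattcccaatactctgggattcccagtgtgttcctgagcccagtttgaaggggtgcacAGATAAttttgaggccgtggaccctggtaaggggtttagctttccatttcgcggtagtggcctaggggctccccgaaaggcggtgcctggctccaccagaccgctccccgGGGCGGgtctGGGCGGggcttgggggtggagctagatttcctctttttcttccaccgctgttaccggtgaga
Edn1 holds CATTCC, the TEAD motif on the other strand, beginning 207 bases before the start and the antioxidant core match TGACTTTGC beginning 194 bases before it. Its upstream GC content was 50.4%, against 65.2% for Apln, 59.2% for Vegfa and a median of 52.0% over all promoters.

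Of the 10 members, 9 had a window in the RefSeq table, and these were compared over the full 300 bases, which add 50 past the start, with the most upstream window of each of 27025 genes. The GC box stood in 8 of the 9 members, all but Edn1, and in 35.9% of all windows. Those 8 had upstream GC contents of 59.2% (Vegfa) to 76.4% (Vegfb), above the median of 52.0%. None of the motif shares was matched for GC content. The antioxidant core stood in 4 (Edn1, Pgf, Vegfc and Fgf2), against 12.4% of windows. The Pgf match shares bases with a GCGTG match on the same strand. Edn1 alone of the 9 held ACGTG, 22 bases past the start, and the TEAD motif, which occur in 19.6% and 14.7% of windows. GCGTG was found in 5 members (Ece1, Pdgfa, Pgf, Vegfb and Fgf2) and in 32.5% of windows. GATA was found in Edn1 and Vegfa, against 11.4%, while TATAAA (14.2%) and TGANTCA (7.92%) were found in none of the 9. These matches describe letters only, and binding was not measured.

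All 10 members passed the filter on low counts. In edgeR's quasi-likelihood fit over 13531 genes, 6 members were past the threshold (Benjamini-Hochberg adjusted p of 0.05) on the lower side and 3 on the higher side, where 19.6% of all tested genes were lower and 19.3% higher, 38.8% together. In 6 members every 4-OI library lay below every DMSO library, and in 2 every 4-OI library lay above, against 18.0% and 17.4% of tested genes, 35.4% together. The 6 on the lower side held under all 18 alternative settings. The 3 on the higher side became 1 with DESeq2, TPM or FPKM and without 4-OI replicate 1, DMSO replicate 2 or DMSO replicate 4. They became 2 with no filter on low counts, a stricter filter or a replicate block. They also became 2 without 4-OI replicate 2, 3 or 4 or DMSO replicate 1. Because the list was chosen with this contrast known, nothing is read from these counts. The partner lists below were also chosen with earlier results of these data known, so nothing is read from their called shares either. The median log2 fold change of the members was -0.49, and that of all tested genes was 0.00. Every log2 fold change here is 4-OI over DMSO.

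**Figure D1:**
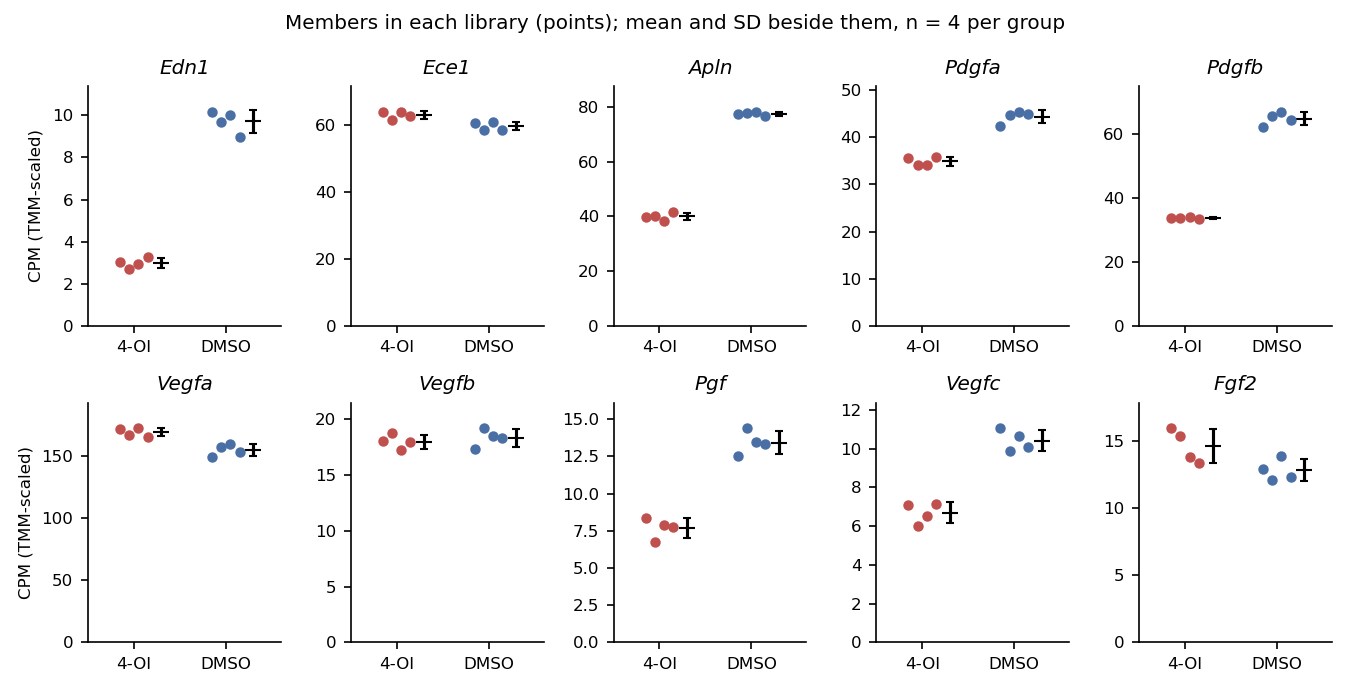
Level of each member in every library, as CPM scaled by the TMM factor (linear axes from 0); points are libraries, with the mean and SD beside them, 4-OI in red and DMSO in blue. Edn1, Apln, Pdgfb, Pgf, Vegfc and Pdgfa show 4-OI libraries entirely below DMSO libraries, Vegfa and Ece1 entirely above by small amounts, and Vegfb and Fgf2 overlap.

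Edn1, the precursor of endothelin-1 (GRCm38 chromosome 13, 42301476 to 42307990, plus strand), had the lowest fold change of the 10. It had 3.01, 2.69, 2.93 and 3.27 CPM with 4-OI and 10.17, 9.69, 10.01 and 8.97 CPM with DMSO, from 76 to 102 counts and 228 to 280 counts. All 4-OI libraries lay far below the DMSO libraries, at 30.8% of the DMSO level in the fit. The log2 fold change was -1.70 (standard error, SE, 0.08), and only 18 of the 13531 tested genes had a lower one. Across the 15 count-based alternatives it ran between -1.75 and -1.65.

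Ece1, the protease that releases endothelin-1 from its precursor (chromosome 4, 137862237 to 137965229), was nearly level. It had 63.8, 61.3, 63.8 and 62.6 CPM with 4-OI and 60.4, 58.4, 60.9 and 58.5 CPM with DMSO. The 4-OI libraries lay just above the DMSO libraries, by a log2 fold change of 0.08 (SE 0.03). It was past the threshold in 5 of 18 alternative settings and not in the other 13. The enzyme's transcript was thus about as abundant in both groups while that of its substrate was at 30.8% of the DMSO level with 4-OI.

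The unit matters for Ece1. In the authors' TPM, which divide by transcript length, it had 48.5, 22.6, 89.1 and 70.4 with 4-OI and 23.0, 62.8, 21.6 and 37.8 with DMSO, so the groups overlapped widely. Setting counts against the authors' FPKM gives the transcript length those values imply, which was 1806, 3746, 976.4 and 1217 bases with 4-OI and 3632, 1269, 3820 and 2088 bases with DMSO. Since counts were nearly level and the implied length is computed from FPKM, high TPM had to go with short implied lengths. The longest implied length was 3.91 times the shortest, a ratio reached or passed by only 6 of 10094 genes with 100 counts or more in every library, Ece1 included, where the median gene had 1.08. GENCODE M21 lists 4 Ece1 transcripts, of 172, 321, 728 and 4816 bases. Isoform-level values were not analysed here, so counts are the scale used for Ece1.

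**Figure D2:**
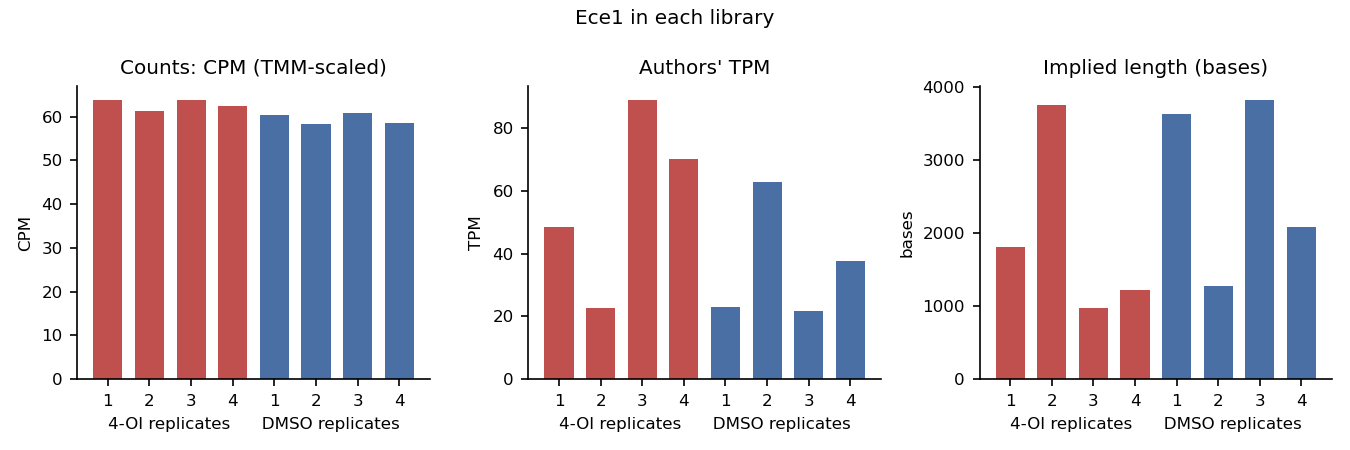
Ece1 in each of the 8 libraries as CPM (left), the authors' TPM (middle) and the transcript length implied by counts and FPKM (right, bases); bars are single libraries, 4-OI in red and DMSO in blue. CPM stays between 58.4 and 63.8 while TPM runs from 21.6 to 89.1 as the implied length runs from 3820 down to 976.4 bases.

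Apln, the apelin precursor (chromosome X, 48025146 to 48034853, minus strand), was far below its control level. It had 39.8, 40.3, 38.4 and 41.6 CPM with 4-OI and 77.5, 77.7, 78.3 and 76.6 CPM with DMSO. The groups were tight and far apart, with a log2 fold change of -0.95 (SE 0.03). Its implied length stayed between 2837 and 2859 bases, so TPM gave the same picture (19.3 ± 0.657 with 4-OI and 37.1 ± 0.575 with DMSO, SD, n = 4 each).

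The receptors for these peptides were all but absent from the cultures. Ednra had 1 count in 1 4-OI library and 0 in the 7 other libraries, 4-OI and DMSO alike. Ednrb, the endothelin receptor of the melanocyte lineage, had 4, 3, 0 and 3 counts with 4-OI and 1, 0, 2 and 1 with DMSO. Aplnr had 3 to 5 counts with 4-OI and 1 to 5 with DMSO. A count of 0 allows up to 3 counts, or 0.0962 to 0.117 CPM in the 4-OI libraries and 0.0957 to 0.131 CPM in the DMSO libraries, and covers counting error only. These 3 receptors fell below the filter, so their levels could not be compared at this depth. Among the 15 other genes of endothelin and apelin handling, 5 could be tested, and Ace, angiotensin-converting enzyme, was the 1 that was called (20.0%, against 38.8% of all tested genes). It had 3.07 ± 0.733 CPM with 4-OI and 4.47 ± 0.513 CPM with DMSO (SD, n = 4 each), with overlap, a log2 fold change of -0.54 (adjusted p = 0.00456 by edgeR). The proprotein convertase genes Furin (-0.04) and Pcsk7 (0.10) were not called, nor were the endothelin-processing homologue Ece2 (0.41) and the peptidase Mme (-0.46). The median of these 5 was -0.04.

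Among the VEGF genes, Vegfa, the principal blood vessel growth factor (chromosome 17, 46016993 to 46032369), was by far the most abundant. It had 172.4, 167.5, 172.7 and 165.7 CPM with 4-OI and 149.6, 157.6, 159.9 and 153.7 CPM with DMSO. The 4-OI libraries all lay above the DMSO libraries, but by a small step, with a log2 fold change of 0.13 (SE 0.03). Vegfb (chromosome 19, 6982473 to 6987651), a ligand of FLT1 tied to fatty acid handling, had 18.1, 18.8, 17.2 and 17.9 CPM with 4-OI and 17.3, 19.2, 18.5 and 18.3 CPM with DMSO. Its groups overlapped, with a log2 fold change of -0.03 (SE 0.05).

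The less abundant VEGF genes were lower. Pgf, placental growth factor and also a ligand of FLT1 (chromosome 12, 85166635 to 85177790), had 8.35, 6.74, 7.86 and 7.76 CPM with 4-OI and 12.5, 14.4, 13.5 and 13.3 CPM with DMSO, without overlap. Its log2 fold change was -0.81 (SE 0.07). Vegfc, the lymphatic growth factor (chromosome 8, 54077606 to 54187096), had 7.11, 5.99, 6.52 and 7.15 CPM with 4-OI and 11.1, 9.86, 10.6 and 10.1 CPM with DMSO. These groups did not overlap either, and the log2 fold change was -0.64 (SE 0.07).

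Of the 16 partner genes of VEGF signalling, 12 could be tested, of which 3 rose, 8 fell and 1 was not called, with a median log2 fold change of -0.25. That is 91.7% called, against 38.8% of all tested genes. The list was chosen with earlier results of these data known, so this share is a description only. Vegfd, the other lymphatic ligand, was singled out after its values were seen, and had 10.99 ± 0.674 CPM with 4-OI and 16.8 ± 0.255 CPM with DMSO (SD, n = 4 each; adjusted p = 2.5e-08 by edgeR). Ccbe1, a secreted cofactor needed for VEGF-C cleavage, had 4.10, 5.14, 3.86 and 3.62 CPM with 4-OI and 10.3, 9.98, 9.48 and 9.62 CPM with DMSO, a log2 fold change of -1.24 (SE 0.09; adjusted p = 1.14e-09 by edgeR). Adamts3, the protease that makes that cut, had 2.01, 1.67, 2.56 and 1.86 CPM with 4-OI and 3.16, 3.62, 3.78 and 3.81 CPM with DMSO, a log2 fold change of -0.82 (adjusted p = 7.27e-05 by edgeR). The convertase genes Pcsk5 and Pcsk6 of this list were too scarce to test.

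Receptors of the VEGF family differed in presence and in direction. Flt1, which binds VEGF-A, VEGF-B and placental growth factor, had 23.8, 22.0, 23.6 and 23.6 CPM with 4-OI and 35.2, 35.7, 40.2 and 35.0 CPM with DMSO, a log2 fold change of -0.65 (adjusted p = 2.44e-09 by edgeR). Kdr, the main signalling receptor of endothelium, had 0 counts in all 8 libraries, and Flt4, the lymphatic receptor, had 1 to 5 with 4-OI and 1 to 4 with DMSO. The coreceptor Nrp1 rose to 62.5 ± 1.78 CPM with 4-OI, against 45.6 ± 0.745 CPM with DMSO (SD, n = 4 each; adjusted p = 8.06e-10 by edgeR). Its relative Nrp2, which binds VEGF-C, fell to 371.0 ± 11.3 CPM with 4-OI, against 443.0 ± 8.98 CPM with DMSO (SD, n = 4 each; adjusted p = 1.41e-07 by edgeR). On the length-adjusted scale Nrp2 still exceeded Nrp1 in both groups, at 82.1 and 26.1 TPM with 4-OI and 97.2 and 19.0 TPM with DMSO. Sema3c, a semaphorin that binds neuropilins, rose by a log2 fold change of 1.23 (adjusted p = 1.05e-13 by edgeR), and Sema3f fell by 0.73 on that scale at about 1 to 2 CPM (adjusted p = 0.00748 by edgeR).

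**Figure D3:**
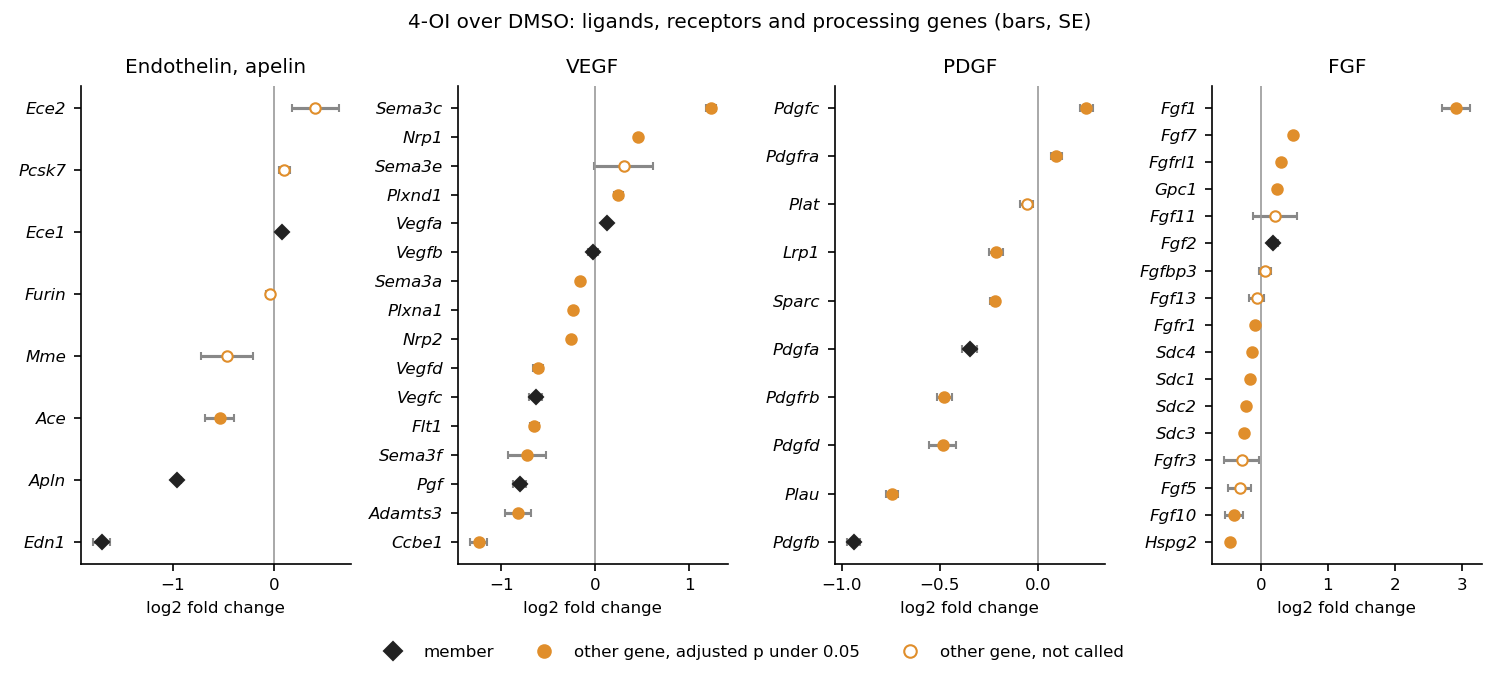
Log2 fold change of 4-OI over DMSO with its standard error for members (black diamonds) and other tested genes of the same systems (circles, filled where edgeR's adjusted p is under 0.05); each panel has its own horizontal scale. Edn1 at -1.70 and Pdgfb at -0.94 sit at the bottom of their panels, and Fgf1 at 2.91 at the top of the FGF panel.

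Per length, the family's sum differed by less than the spread between libraries while its make-up was unlike in the groups. The TPM of Vegfa, Vegfb, Vegfc, Vegfd and Pgf summed to 171.5 ± 4.89 with 4-OI and 170.8 ± 5.71 with DMSO (SD, n = 4 each). Vegfa made up 70.2 to 73.3% of that sum in the 4-OI libraries and 63.5 to 64.1% in the DMSO libraries. Its implied length was 1810 to 1963 bases with 4-OI and 1917 to 1968 bases with DMSO. The shortest was in 4-OI replicate 3, which had the highest Vegfa share, so these shares also vary with implied length. The Pgf share was 4.4 to 5.51% with 4-OI and 8.20 to 8.82% with DMSO, and that of Vegfc was 2.33 to 2.92% with 4-OI and 3.82 to 4.47% with DMSO. Vegfd held 4.97 to 5.56% with 4-OI and 7.58 to 8.01% with DMSO. None of these pairs of ranges overlapped, whereas Vegfb held 14.2 to 17.0% with 4-OI and 15.6 to 16.4% with DMSO. These shares use the values that chose the list and carry no test.

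Both classical PDGF chains were lower, and by unequal amounts. Pdgfb (chromosome 15, 79995874 to 80014977), whose product binds both PDGF receptors, had 33.7, 33.8, 34.2 and 33.5 CPM with 4-OI and 62.3, 65.6, 67.1 and 64.4 CPM with DMSO. The 4-OI libraries were at 52.1% of the DMSO level, a log2 fold change of -0.94 (SE 0.03). Pdgfa (chromosome 5, 138976014 to 138997370), whose product binds the alpha receptor, had 35.6, 34.0, 34.1 and 35.8 CPM with 4-OI and 42.3, 44.7, 45.4 and 44.9 CPM with DMSO. There was no overlap, and the log2 fold change was -0.35 (SE 0.04). The ratio of Pdgfa to Pdgfb in TPM was therefore 1.72 to 2.02 with 4-OI and 1.24 to 1.37 with DMSO. Pdgfa shares 2315 bases with the antisense gene 6330403L08Rik, which was also lower (log2 fold change -0.31, adjusted p = 0.000382 by edgeR). No source used here states whether counting used strand, and without it reads of the overlap cannot be told apart.

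All 8 partner genes of PDGF signalling could be tested, and 2 rose, 5 fell and 1 was not called (87.5% called, against 38.8% of all tested genes; median log2 fold change -0.22). Pdgfrb, the beta receptor, had 52.1, 54.3, 55.1 and 48.5 CPM with 4-OI and 70.4, 73.1, 76.5 and 72.3 CPM with DMSO, a log2 fold change of -0.48 (adjusted p = 6.06e-09 by edgeR). Pdgfd, another ligand of that receptor, fell by 0.49 on the log2 scale (adjusted p = 1.64e-05 by edgeR). Plau, the urokinase protease, which can activate PDGF-D, fell to 59.8 ± 1.07 CPM (SD, n = 4) with 4-OI, against 103.3, 100.6, 95.1 and 101.2 CPM with DMSO (adjusted p = 1.56e-13 by edgeR). The 2 that rose belong to the alpha receptor: its ligand Pdgfc by a log2 fold change of 0.25 (adjusted p = 4.36e-06 by edgeR) and the receptor Pdgfra itself by 0.10 (adjusted p = 0.0137 by edgeR). The libraries of Pdgfra overlapped, and its call ended without 4-OI replicate 3 (adjusted p = 0.058) or DMSO replicate 1 (adjusted p = 0.0516). Plat, tissue plasminogen activator, was not called (-0.06).

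Fgf2, basic fibroblast growth factor (chromosome 3, 37348346 to 37410108), had the highest fitted fold change of the 10, and a modest one. It had 15.96, 15.4, 13.8 and 13.3 CPM with 4-OI and 13.0, 12.1, 13.9 and 12.3 CPM with DMSO. The groups overlapped, with a log2 fold change of 0.19 (SE 0.07). It was past the threshold in 10 of 18 alternative settings. Leaving out 4-OI replicate 1 or 2, or DMSO replicate 2 or 4, each put it outside. Its 3' end overlaps Nudt6 on the opposite strand over 5199 bases, and that gene was level (log2 fold change 0.02, adjusted p = 0.897 by edgeR).

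Fgf2's relatives moved in both directions. Of 22 partner genes of FGF signalling, 16 could be tested, and 4 rose, 7 fell and 5 were not called (68.8% called, against 38.8% of all tested genes; median log2 fold change -0.11). Fgf1, acidic fibroblast growth factor, was scarce in controls and had 79, 84, 88 and 101 counts with 4-OI and 9, 7, 7 and 19 counts with DMSO, a log2 fold change of 2.91 (SE 0.20; adjusted p = 6.22e-10 by edgeR). At these low levels the added 1 shrank that value to 1.08 on log2(TPM + 1) and 0.89 on log2(FPKM + 1). Fgf7, keratinocyte growth factor, rose to 269.8 ± 9.52 CPM with 4-OI, against 194.4 ± 7.42 CPM with DMSO (SD, n = 4 each; adjusted p = 1.26e-10 by edgeR). Fgf10 fell by 0.40 on the log2 scale (adjusted p = 0.0212 by edgeR), a call that ended without 4-OI replicate 3 (adjusted p = 0.0849), DMSO replicate 1 (0.0516) or DMSO replicate 3 (0.0722). Among the receptors, Fgfr1 was by far the most abundant, at 144.3 ± 5.95 TPM with 4-OI and 152.4 ± 2.58 TPM with DMSO (SD, n = 4 each), and fell by 0.09 on the log2 scale (adjusted p = 0.0127 by edgeR). Fgfr3 was not called at under 1 CPM, Fgfr2 had 0 to 3 counts with 4-OI and 1 to 4 with DMSO, and Fgfr4 had 0 in every library. Hspg2, the heparan sulfate proteoglycan perlecan that holds FGF-2 in the matrix, fell to 464.9 ± 22.0 CPM with 4-OI, against 640.0 ± 26.3 CPM with DMSO (SD, n = 4 each; adjusted p = 9.3e-10 by edgeR).

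Ordered by TPM, the members' ranking differed between the groups. With 4-OI the order from the top was Vegfa (122.9 ± 5.15), Ece1 (57.7 ± 28.6), Pdgfa (34.5 ± 2.00), Vegfb (26.8 ± 1.26), Apln (19.3 ± 0.657), Pdgfb (18.5 ± 0.695), Pgf (8.43 ± 0.929), Fgf2 (4.67 ± 0.540), Vegfc (4.41 ± 0.503) and Edn1 (2.22 ± 0.167), as mean TPM ± SD over 4 libraries. With DMSO it was Vegfa (108.8 ± 3.76), Pdgfa (44.8 ± 1.49), Apln (37.1 ± 0.575), Ece1 (36.3 ± 19.1), Pdgfb (34.6 ± 0.929), Vegfb (27.4 ± 1.18), Pgf (14.5 ± 0.831), Edn1 (7.21 ± 0.449), Vegfc (6.86 ± 0.448) and Fgf2 (3.83 ± 0.315). Neighbours whose libraries overlapped were Ece1 and Pdgfa, Apln and Pdgfb, and Fgf2 and Vegfc with 4-OI. With DMSO they were Apln and Ece1, Ece1 and Pdgfb, and Edn1 and Vegfc. Beyond its neighbours, Ece1 also overlapped Vegfb in both groups and Pdgfa with DMSO, so its rank is uncertain. The implied length of Fgf2 was 3567 bases in 4-OI replicate 3 and 4396 to 4782 bases in the other libraries. That library had the highest Fgf2 TPM (5.27) but not the highest CPM (13.8), so the Fgf2 TPM also vary with implied length. Edn1 stood last with 4-OI and was level with Vegfc with DMSO. Apln stood below Vegfb in every 4-OI library, at 0.692 to 0.753 of its TPM, and above it in every DMSO library, at 1.3 to 1.45 of its TPM.

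**Figure D4:**
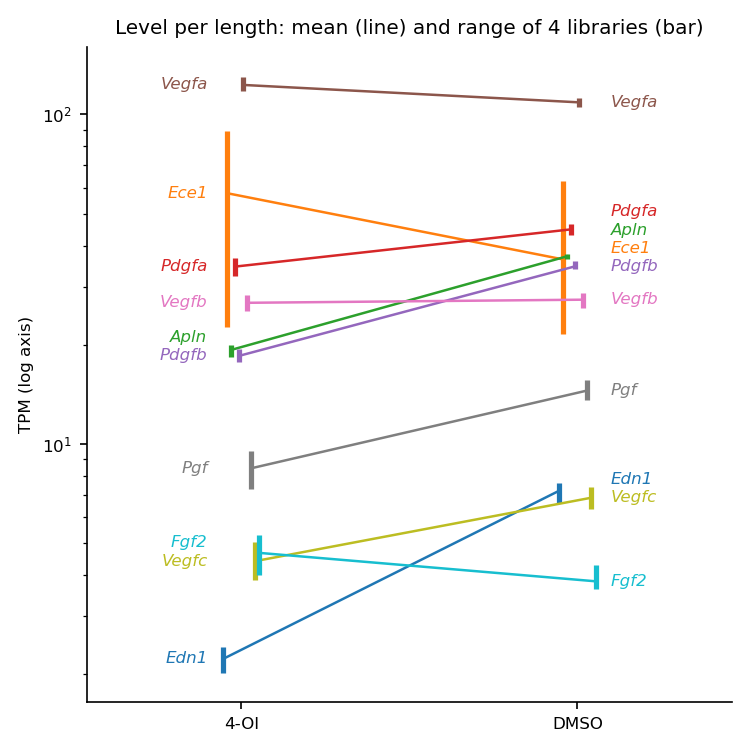
Mean TPM of each member with 4-OI (left) and DMSO (right) on a log axis; thick bars span the lowest to the highest of 4 libraries. Edn1 is at 2.22 TPM with 4-OI and 7.21 with DMSO, Vegfa at 122.9 and 108.8, and the wide Ece1 bars follow the implied lengths given above.

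Other angiogenic ligands, listed as 31 genes of which 22 could be tested, gave 5 that rose, 10 that fell and 7 not called (68.2% called, against 38.8% of all tested genes; median log2 fold change -0.16). The largest changes at 1 CPM or more were those of Angptl4, a lipoprotein lipase inhibitor (2.64, adjusted p = 3.64e-21 by edgeR), the chemokine Cxcl12 (-1.12, adjusted p = 1.83e-15 by edgeR), the bone morphogenetic protein Bmp2 (-1.07, adjusted p = 1.79e-10 by edgeR) and the EGF receptor ligand Areg (0.86, adjusted p = 2.04e-09 by edgeR). Of 17 genes listed as inhibitors of vessel growth, 14 could be tested, with a median of -0.22. Among the 14, 11 fell, none rose and 3 (Vash2, Spry2 and Spry4) were not called. Action on vessels was not measured for any gene of this list, the interferon-inducible Isg15 included. Over all tested genes 19.6% fell and 19.3% rose. Timp3, which blocks VEGF-A from its receptor as well as metalloproteases, fell to 197.0 ± 3.30 CPM with 4-OI, against 319.5 ± 7.29 CPM with DMSO (SD, n = 4 each; adjusted p = 9.34e-15 by edgeR). The matrix protein Thbs2 fell by 0.43 on the log2 scale (adjusted p = 1.76e-10 by edgeR), and the interferon-inducible Cxcl10 (-1.49, adjusted p = 7.88e-15 by edgeR) and Isg15 (-1.10, adjusted p = 8.2e-11 by edgeR) had the largest falls of the list at 1 CPM or more.

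Regulators known to act on these ligand genes were also listed. Of 30 tested, 3 rose, 13 fell and 14 were not called (53.3% called, against 38.8% of all tested genes), with a median log2 fold change of -0.05. Egln1 and Egln3, oxygen-sensing hydroxylases that mark HIF proteins for breakdown and are themselves induced by HIF, fell by 0.54 and 0.47 on the log2 scale (adjusted p = 4.63e-11 and 1.28e-05 by edgeR). Of the other HIF genes listed, Epas1 (0.39) rose, Hif1a (-0.10) fell, and Arnt, Vhl, Egln2 and Hif1an were not called. Fosl1, a subunit of the AP-1 factor, rose by 0.43 (adjusted p = 2.74e-10 by edgeR). Among the other AP-1 genes listed, Fosl2 (0.15) rose, Jun (-0.22) and Junb (-0.26) fell, and Fos and Jund were not called. Ets1, an endothelial and tumour transcription factor, fell by 0.41 (adjusted p = 5.47e-10 by edgeR). Over all 7 lists, 107 of 140 genes could be tested, 17 rose and 55 fell, or 67.3% called, with a median of -0.15. The lists were chosen with earlier results of these data known, so nothing is read from these shares.

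Genes whose profile over the 8 libraries was nearest to that of Edn1, by Euclidean distance of log2 values relative to the DMSO mean among 10960 genes, were Cxcl10 (0.338), Gbp3 (0.393), Cmpk2 (0.459), Postn (0.497) and Col1a1 (0.568). Their log2 fold changes were -1.49, -1.57, -1.95, -1.41 and -1.39, against -1.70 for Edn1. Cxcl10, Gbp3 and Cmpk2 are interferon-inducible genes, and Postn and Col1a1 encode matrix proteins. Those nearest to Fgf2 were Npr2 (0.101), Zfp473 (0.119), Card6 (0.133), Tmem250-ps (0.136) and Vcp-rs (0.146), with log2 fold changes of 0.15 to 0.21. Of these, Zfp473 (adjusted p = 0.46 by edgeR) and Vcp-rs (adjusted p = 0.0728 by edgeR) were not called. With profiles set relative to the DMSO mean, the distance depends largely on the fold change itself, and shared regulation was not tested.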

How the data were processed

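RNA of 8 libraries was analysed from the deposited tables. Per the submitters' processing notes, the tools were RSEM 1.3.3, STAR 2.7.8a, MultiQC 1.7, cutadapt 2.3 and FastQC 0.11.8 on GRCm38, with no role or order given. The authors deposited expected counts per gene, which are whole numbers in every cell, and the length-adjusted units TPM and FPKM. No source used here gives the annotation release or the strand setting. Columns were matched to libraries by the labels' descriptions, and positions came from GENCODE M21.

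Expected counts were tested with edgeR 4.0.16 in R 4.3.3 (filterByExpr at a minimum count of 10, TMM, two-sided quasi-likelihood F test, Benjamini-Hochberg over 13531 genes). CPM are counts per 1000000 after TMM scaling. Where 114 symbols stood on several rows, the most abundant row kept the symbol. The implied length is each gene's share of the library total over its FPKM, in bases. Simulated counts were used to check the fit. Members and lists were chosen with earlier results of these data known. Named partner genes are up to 4 per list by size of change among called genes at 1 CPM or more. All receptors of member ligands are also named, and other genes are named to spell out counts or the rest of a family. limma 3.58.1, DESeq2 1.42.0, other filters and scalings, a GC content and length offset, a replicate block and leaving out each library were alternatives. Pdgfb has no promoter sequence here. Figures used matplotlib 3.10.9.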

Additional observations from a re-analysis of the deposited data

How the results depend on the processing

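Among the values recomputed (the counts of calls and the fold changes of the 10 members and of the partner genes named by the rule), none reversed its direction under the 18 alternatives that could be fitted for it. Fgfr3 dropped out under the stricter filter, and the other fold changes in the text were not recomputed. Over all genes, limma called 1584 higher and 1462 lower on log2(TPM + 1), 1601 and 1478 on log2(TPM + 0.1), and 1730 and 1413 on log2(FPKM + 1), against 2607 and 2646 with edgeR on counts. Over the partner lists together, the 17 higher and 55 lower calls became 13 and 40 on either TPM scale and 14 and 41 on FPKM. Among the partner genes named by the rule, Ace, Sema3f, Fgfr1, Fgf10 and Pdgfra lost their calls there, and Fgf10 also with DESeq2. The cause was not tested. The 6 members on the lower side stayed past the threshold under every alternative. Of the 3 on the higher side, 1 was left (Vegfa) with DESeq2, with TPM at either pseudocount and with FPKM, because Ece1 and Fgf2 lay outside. Leaving out 1 library at a time gave 1 to 3, with 1 without 4-OI replicate 1, DMSO replicate 2 or DMSO replicate 4. On log2(TPM + 1) the Ece1 fold change was 0.62 (SE 0.46), since its TPM follow the implied length, and the Edn1 fold change was -1.35 and that of Fgf1 1.08, since the added 1 shrinks low values. With library totals in place of TMM, Ece1 stood at 0.10 and Vegfa at 0.15.

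Same-numbered replicates of the groups did not deviate together: their correlations were 0.16, 0.03, -0.03 and -0.06, and not every library correlated best with its own number. The labels do not say what a number shares. With the replicate block, 2526 genes were higher and 2618 lower, 2 members were higher and 6 lower, and Ece1 was the member outside the threshold besides Vegfb. With the block and the GC content and length offset together, 2534 were higher and 2951 lower. Depth limits what can be said of Ednra, Ednrb, Aplnr, Kdr and Flt4, which had at most 5 counts in any library.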
